A study of Mus musculus with 4 samples.

Results

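The potassium channel genes described here are the autosomal protein-coding genes of the mouse whose symbols begin with Kcn, followed by a family letter code and a number, leaving out Kcnq1 and Kcnj2. Of the 91 autosomal genes that match this pattern, 89 remained, out of 20807 autosomal protein-coding genes in the GENCODE M21 annotation. They lie on 18 of the 19 autosomes. The question put to the data is where the DNA-binding protein CTCF sat near the starts and inside the bodies of these genes.

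Binding of CTCF was measured by ChIP-seq, the sequencing of DNA pulled down with an antibody against the protein, in the gastrocnemius, the main calf muscle, of adult female mice at 2 months of age. All mice were of the hybrid strain B6CASTF1/J, and no treatment or genotype was compared. There were 4 libraries: pool E and pool F each combined 2 biosamples and each had 2 technical replicates, with DNA fragments of 200 to 600 bp. Because the hybrid genome was placed on mm10 (GRCm38), the alleles of the parent strains were not told apart. Whole muscle also holds vessel, nerve, connective tissue and immune cells, and the peak lists give no level of expression. The technical replicates of each pool were merged before peaks were called, so no value below has a spread between libraries, and only pool E and pool F can be set side by side.

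Potassium channels let potassium ions leave or enter the cell and so set the resting potential and end action potentials. Pore-forming voltage-gated subunits open on depolarisation, inward rectifiers and two-pore channels hold the resting potential, calcium-activated channels couple calcium signals to the membrane, and auxiliary subunits change the gating or placement of the pore. In skeletal muscle, repolarisation after each action potential depends on such channels, and the ATP-sensitive channel links the membrane potential to the energy state of the fibre. CTCF is a zinc-finger protein that recognises a long, non-palindromic DNA motif and, with cohesin, anchors chromosome loops, so that the strand of its motif gives each site a direction.

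The sites shown next are matches to the CTCF consensus at strong summits near the starts of these genes and at 5 of the strongest inside them. A summit is the base at which a peak is highest, and its strength is a score found in the authors' list. Each line is 30 bases of the RefSeq GRCm38 genome, read 5′ to 3′ on the strand of the motif, with the 14-base match in capitals and 8 flanking bases on each side in lower case.
Kcnc1, 3182 bp before the start: aggccccgCCACAAGATGGCAGtccaaccc
Kcna7, 415 bp before the start: ccatccggCCGGCAGAGGGCGCgcgagatc
Kcna7, 1885 bp before the start: cctgcaggCCAGAAGAGGGCGCcagatctc
Kcnj11, 4486 bp after the start: ctctgtggCCAGCAGGTGGCACcataaccc
Kcnj11, 44 bp before the start: agcctccgCCGCCAGAGGGCGCcagatcgg
Kcnc4, 2798 bp before the start: tcccagcaCCACTAGGGGGCAGcaccctcc
Kcnk9, 3235 bp before the start: tctcggcgCCACCAGGGGGCGCtagactcc
Kcnh1, 85 bp before the start: atgcgcgcACGGTAGGGGGCGCcctggacc
Kcnk13, 35 bp before the start: ctctcaggCCAGAAGAGGGCGCtgcgtgcc
Kcnn1, 18541 bp into the gene: ctgtgtgaCCAGCAGGGGGCGCcagaggtg
Kcnip1, 75373 bp into the gene: agtgatgaCCAGCAGAGGGCGCcacaggcc
Kcnj10, 16555 bp into the gene: agtcctggCCACCAGGGGGCAGggctccct
Kcnma1, 6021 bp into the gene: agaagacgCCACCAGAGGACGCcacatcac
Kcnma1, 484546 bp into the gene: tcagaaggCCACAAGATGGCAGtgcttcca

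The Kcnc1 site at chr7:46393316-46393345 is on the plus strand, and its 14-base match is letter for letter that of the second Kcnma1 site, at chr14:23529928-23529957 on the minus strand. Likewise the Kcna7 site at chr7:45403747-45403776 and the Kcnk13 site at chr12:99964442-99964471, both on the minus strand, share their 14 bases. The flanks differ within both pairs. The other Kcna7 site lies at chr7:45405221-45405250 on the plus strand. Both Kcnj11 sites, at chr7:46096265-46096294 and chr7:46100794-46100823, are on the plus strand and face against the gene. Kcnc4 has its site at chr3:107462339-107462368 on the minus strand, and Kcnk9 at chr15:72549563-72549592 and Kcnh1 at chr1:192190721-192190750 have theirs on the plus strand. Inside the genes, the Kcnn1 site is at chr8:70844702-70844731 on the plus strand, and the Kcnip1 site at chr11:33917755-33917784, the Kcnj10 site at chr1:172357742-172357771 and the first Kcnma1 site at chr14:24008457-24008486 are on the minus strand.

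CTCF summits lay near the starts of 30 of the 89 potassium channel genes, within 5000 bp on either side, which is 33.7% (95% Wilson interval 24.7 to 44.0%), against 38.2% of all autosomal protein-coding genes. Inside the gene body, 51 members had at least 1 summit, which is 57.3% (46.9 to 67.1%), against 46.7% of all genes. A summit in either place was found for 57 members, 64.0% (53.7 to 73.2%), against 58.3% of all genes. Thus 24 members had summits in both places, 27 in the body only, 6 near the start only, and 32 in neither. These counts rest on the authors' conservative list, which was made from both pools and holds 41000 autosomal summits, and a listed peak need not be in the list of each pool. Intervals here cover counting error only and treat genes as independent. The near-start interval includes the share of all genes, and the body interval starts just above it.

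Potassium channel genes are long, with a median of 32.4 kb (quartiles 10.6 and 98.2 kb) against 17.6 kb for all coding genes, so the shares were also set against genes of like length. Among genes under 10 kb, 5 of 21 members had a near-start summit, 23.8% against 33.2% of all genes of that length. In the class from 10 to 50 kb it was 12 of 33, 36.4% against 39.9%, and from 50 to 200 kb 5 of 18, 27.8% against 42.9%. At 200 kb and over, 8 of 17 members had one, 47.1% against 43.0%. For gene bodies the 4 classes gave 5 of 21 members (23.8% against 17.1%), 17 of 33 (51.5% against 50.3%), 13 of 18 (72.2% against 83.0%) and 16 of 17 (94.1% against 93.1%). In each class the interval of the members' share includes the share of all genes, for starts and for bodies alike.

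**Figure D1:**
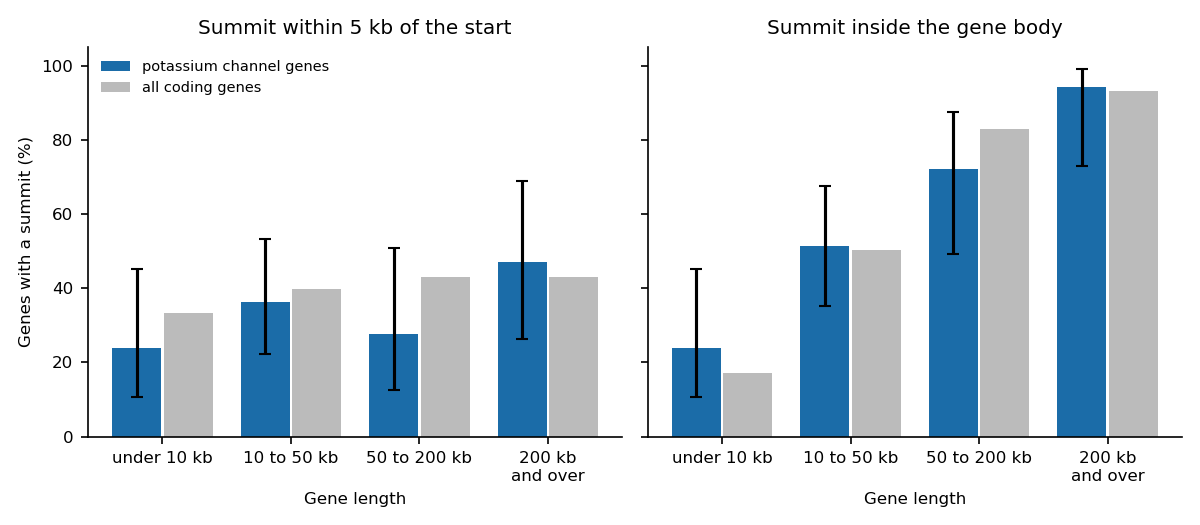
Share of genes (%) with a CTCF summit within 5 kb of the start (left panel) or inside the gene body (right panel), in 4 classes of gene length, for potassium channel genes (blue, bars show 95% Wilson intervals) and all autosomal coding genes (grey). The body share climbs with length in both, to 94.1% of members and 93.1% of all genes at 200 kb and over.

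The start itself was marked for few of these genes, as for few of all coding genes. Within 1000 bp a summit was found for 13 members, 14.6% (8.74 to 23.4%), against 21.1% of all genes, and within 100 bp for 6 members, 6.74% (3.13 to 13.9%), against 6.20%. In the wider window of 20000 bp it was 62 members, 69.7% (59.5 to 78.2%), against 67.1%. The median distance from a start to its nearest summit was 9245 bp for members and 9389 bp for all genes. Of the 40 near-start summits, 17 lay over 1000 and up to 5000 bp before the start, 9 within 1000 bp before it, 5 from the start to 1000 bp after it, and 9 over 1000 and up to 5000 bp after it. Thus 14 of the 40 lay within 1000 bp, against 4364 of the 9121 summits near any coding start. In strength, 13 of the 40 reached 400 and 8 stayed under 100. Their median was 256.6 (quartiles 127.8 and 456.1), against 233.0 (110.1 and 436.0) for the 9121 summits within 5000 bp of any coding start. The strongest near-start summit was above the median of all autosomal summits, 247.0, in 15 of the 30 members and below it in the other 15.

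The 6 summits within 100 bp belong to genes of different classes. Kcnip4, an auxiliary subunit that binds calcium and partners the transient voltage-gated channels, had a summit 6 bp after its start with a strength of only 68.8. That summit lies outside the principal transcript of the gene. Kcnk13, a two-pore channel of microglia and neurons, had one 35 bp before the start with a strength of 455.5, and Kcnj11, the pore of the ATP-sensitive channel, one 44 bp before with a strength of 461.8. Kcnj6, a G-protein-gated inward rectifier, had one 70 bp before at 128.5 with no motif, and Kcnh1, a voltage-gated channel of brain and of fusing human myoblasts, one 85 bp before at 485.8. Of the 5 genes named, only Kcnip4 had its summit after the start.

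The starts were also split by the CpG content of the sequence around them. Where the observed over expected CpG ratio was 0.6 or more, 14 of 36 members had a summit within 5000 bp, 38.9% (24.8 to 55.1%), against 50.8% of all such genes. Within 1000 bp it was 6 of 36, 16.7% (7.87 to 31.9%), against 32.8%, and here the interval lies below the share of all genes. Under a ratio of 0.6, 16 of 53 members had a summit within 5000 bp, 30.2% (19.5 to 43.5%), against 27.0%, and 7 of 53 within 1000 bp, 13.2% (6.55 to 24.8%), against 10.7%. No test of these differences was made.

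**Figure D2:**
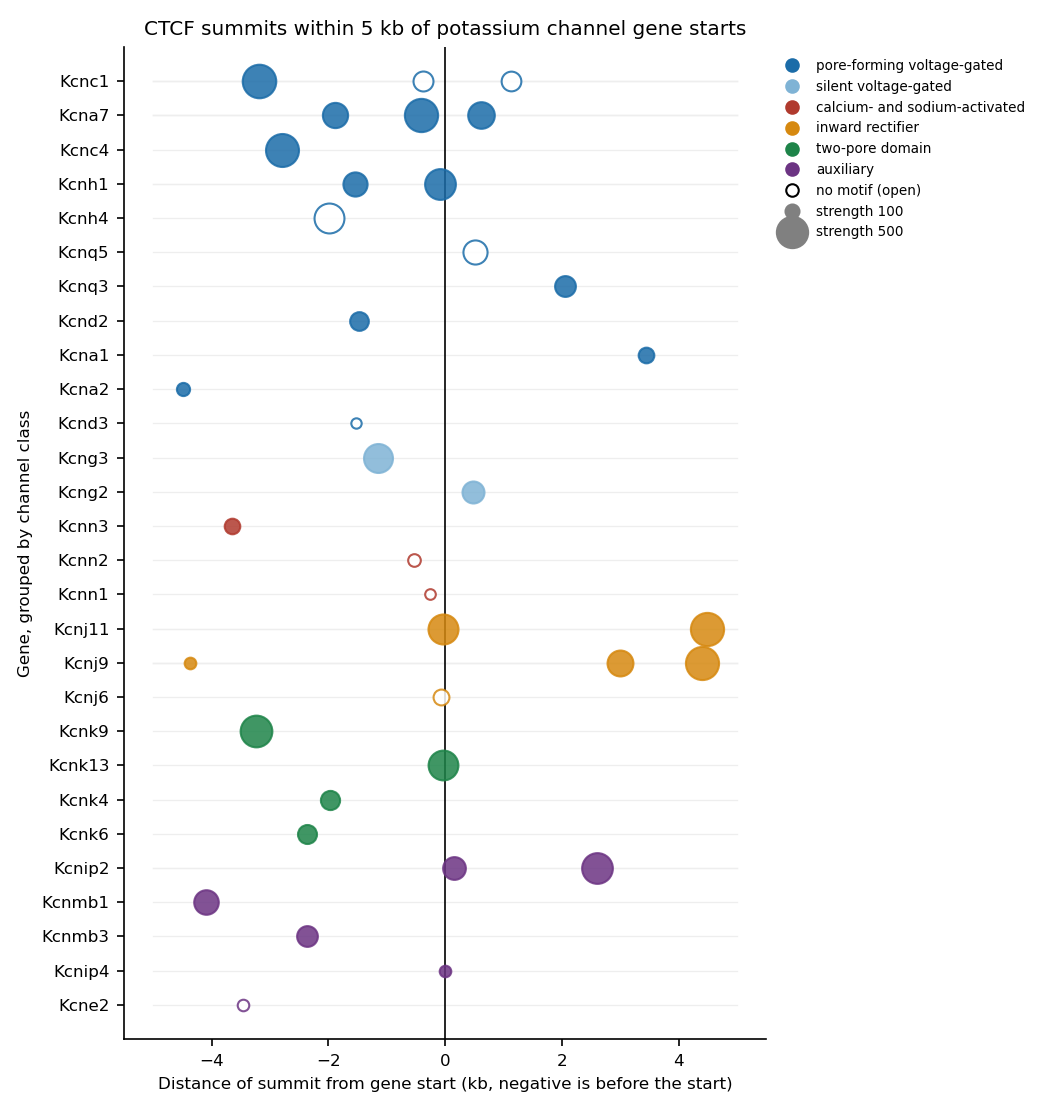
Each point is a CTCF summit within 5 kb of a gene start, for 28 of the 30 members that have one, placed by its distance from the start (kb, negative before the start), with area proportional to peak strength and filled where a CTCF motif was found. Rows are grouped by channel class, and the large points of Kcnc1 (576.7), Kcna7 (566.4) and Kcnj11 (565.0) stand out.

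Among the pore-forming voltage-gated genes, 13 of 28 had a near-start summit (46.4%, interval 29.5 to 64.2%), the highest share of the 6 classes, and 20 had one in the body. Those with a near-start summit included Kcna1, Kcna2, Kcna7, Kcnc1, Kcnc4, Kcnd2, Kcnd3, Kcnh1, Kcnh4, Kcnq3 and Kcnq5. Kcna10, Kcnb2, Kcnc2, Kcnh2, Kcnh3, Kcnh5, Kcnh6 and Kcnh8 were among those with body summits only, and Kcna3, Kcna4, Kcna5, Kcna6 and Kcnh7 among those with neither. Both Kcnd genes had a near-start summit. Of the 8 Kcnh genes, 2 had a near-start summit and 7 a body summit. The intervals of the 6 classes overlap.

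Several voltage-gated genes known in skeletal muscle were among those with the strongest near-start peaks. Kcnc1, a fast delayed rectifier, had 3 near-start summits, of strength 576.7 at 3182 bp before the start, 204.0 at 382 bp before and 199.1 at 1134 bp after. The first of them carries the motif printed above, ranked 1503 of the 41000 and measured 341.6 in pool E and 237.4 in pool F. Kcna7, a delayed rectifier of skeletal and heart muscle, also had 3, of 326.1 at 1885 bp before, 566.4 at 415 bp before and 362.9 at 620 bp after. The last of them lies in its first exon, outside the coding sequence. All 3 carry a motif in Kcna7, against 1 of 3 in Kcnc1.

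Kcnc4, a fast-inactivating channel that in skeletal muscle pairs with the Kcne3 subunit, had 1 near-start summit of 557.8 and none in its 21.3-kb body. Kcne3 itself had none, and its nearest summit was 11325 bp away with a strength of 409.3. Kcnh1 had a second summit 1543 bp before its start, of 298.9, and a single weak one, of 91.9, in its 319.4-kb body. Kcnq5, a slow channel of the M-current family that muscle also expresses, had a near-start summit of 297.8 at 519 bp after the start, in its first coding exon and with no motif.

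Of the silent voltage-gated genes, whose subunits form no channel alone but change the pores they join, only Kcng2 and Kcng3 among 10 had a near-start summit (20.0%, interval 5.67 to 51.0%). Kcng3 had its summit 1146 bp before the start at 429.9, and Kcng2 481 bp after it at 248.1. Kcng1 and Kcnv2 had body summits only, and Kcnf1, Kcng4, Kcns1, Kcns2, Kcns3 and Kcnv1 had neither. None of the 3 Kcns genes had a summit in either place in the conservative list, though the combined list places one near the starts of Kcns2 and Kcns3. Kcnv1 lay in the emptiest surroundings of this class: its nearest summit was 278544 bp away, and the motif-bearing summits that flank it are 3266.4 kb apart.

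The calcium- and sodium-activated class had near-start summits in 3 of 8 genes (37.5%, 13.7 to 69.4%) and body summits in 7, all but Kcnu1, the sperm channel. Kcnu1 was placed in this class by its symbol, not by how it is gated. Near the starts of the small-conductance channel genes the peaks were weak: 58.1 for Kcnn1, 81.9 for Kcnn2 and 124.4 for Kcnn3, all below the median of all autosomal summits. All 3 were absent from the pool F list and present in the pool E list. Kcnn4, the intermediate-conductance channel of blood cells and epithelia, fell just outside the window with a summit 5307 bp before its start at 561.0. Kcnma1, the large-conductance channel gated by both voltage and calcium, had none within 5000 bp, its nearest being 6021 bp into the gene, and Kcnt1 and Kcnt2, the sodium-activated pair, had body summits only.

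Inward rectifiers had near-start summits in 3 of 14 genes (21.4%, 7.57 to 47.6%), Kcnj6, Kcnj9 and Kcnj11, and body summits in 6. Kcnj11 carried 1 summit on each side of its start, the one at 44 bp before measuring 298.1 in pool E and 168.8 in pool F, and the stronger one at 4486 bp after measuring 333.7 in pool E and 237.9 in pool F. A partner of Kcnj11 in the ATP-sensitive channel, the sulfonylurea receptor gene Abcc8, lies on the same strand with 3758 bp between the genes. The only summit in that gap is the one next to the Kcnj11 start. A further summit, of 508.9, lay 1791 bp before the Abcc8 start. The muscle and heart receptor gene Abcc9 and its neighbour Kcnj8 gave another picture: Abcc9 had 3 near-start summits, Kcnj8 none, and the 16247 bp between the genes held no summit. Kcnj12, a strong inward rectifier of skeletal muscle, had 2 summits in its first intron, of 51.7 and 289.9, and none near the start. Kcnj1 and Kcnj10 had body summits only, and Kcnj3, Kcnj4, Kcnj5, Kcnj8, Kcnj13, Kcnj14, Kcnj15 and Kcnj16 had neither.

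Two-pore channel genes had near-start summits in 4 of 14 (28.6%, 11.7 to 54.6%) and body summits in 7. Kcnk9, an acid-sensitive background channel, had the strongest, 515.5 at 3235 bp before the start, and Kcnk13 followed with 455.5. Kcnk4 and Kcnk6 had 188.6 at 1977 bp and 184.9 at 2363 bp before their starts. Kcnk2, Kcnk10, Kcnk12 and Kcnk15 had body summits only, and Kcnk1, Kcnk3, Kcnk5, Kcnk7, Kcnk16 and Kcnk18 had neither. Kcnk2, a mechanosensitive channel, had 4 body summits, none stronger than 118.3.

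Auxiliary subunit genes had near-start summits in 5 of 15 (33.3%, 15.2 to 58.3%) and body summits in 7. Kcnip2, the partner of transient channels in heart, had 1 at 2606 bp after the start of strength 483.8 and 1 at 155 bp after of 265.1, both with a motif. Kcne2, Kcnmb1 and Kcnmb3 had 1 each, of 68.4, 308.7 and 220.4, and none of the 4 Kcne genes had a summit in the body. Kcnab1, Kcnab2, Kcnip1, Kcnip3 and Kcnmb2 had body summits only, and Kcnab3, Kcne1, Kcne3, Kcne4 and Kcnmb4 had neither. The Kcnh4 start, back among the voltage-gated genes, is the single case where the strongest near-start summit was closer to another coding gene: at 457.7 and 1982 bp before Kcnh4, it lies 1007 bp from the start of Hcrt, the orexin gene.

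At the edge of the window, the farthest members inside it were Kcnn3, Kcnmb1 and Kcna2, with nearest summits at 3653, 4098 and 4493 bp and strengths of 124.4, 308.7 and 89.1. Just outside were Kcnk15 at 5041 bp, Kcnn4 at 5307 bp and Kcna10 at 5389 bp, with strengths of 493.5, 561.0 and 402.2. The 3 members left out by the window thus have stronger summits than the 3 it last takes in.

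Gene bodies of the members held 128 summits in 10.03 Mb, or 1.28 per 100 kb, against 2.22 per 100 kb over all coding gene bodies and 1.67 over the autosomes as a whole. Short and middle-sized members were as densely marked as other genes: 4.63 against 4.18 per 100 kb under 10 kb, and 3.36 against 3.35 from 10 to 50 kb. Longer members had fewer, 1.77 against 2.44 from 50 to 200 kb and 0.860 against 1.30 at 200 kb and over. Across the 89 members the number of body summits went with gene length at a Spearman rho of 0.583, beside 0.602 over all 20807 genes. The share of members with a body summit and the density of summits therefore stand on different sides of all genes.

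The shortest members with a body summit were Kcna7 (4.11 kb), the axonal channel gene Kcna1 (5.99 kb), Kcnk15 (6.10 kb), Kcnj11 (6.81 kb) and the G-protein-gated rectifier Kcnj9 (8.82 kb). Kcna1 had 1 summit, of 125.9, in its coding exon, and Kcnk15, a gene related to the acid-sensitive background channels, 1 of 493.5 in its second coding exon with no motif. Kcnj9 had 2, of 562.6 in an intron and 344.0 in a coding exon, and a further summit of 69.7 at 4369 bp before its start.

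**Figure D3:**
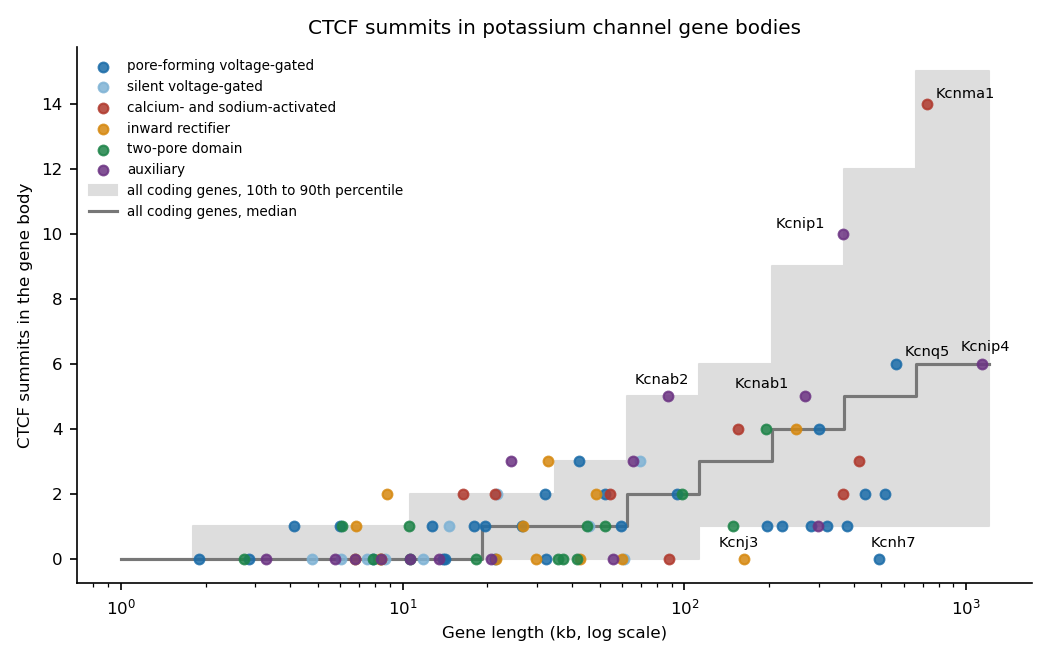
Number of CTCF summits in the body of each of the 89 members (points, coloured by class) against gene length in kb on a log scale, over the median (line) and 10th to 90th percentile (band) of all autosomal coding genes in length bins. Kcnma1 with 14 summits lies in the upper part of the band, Kcnip1 with 10 lies above it, where the 90th percentile of its bin is 9, and Kcnh7 at 490.9 kb has 0.

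The 17 members of 200 kb or more differed widely. Their density ran from 0 in Kcnh7 to 2.75 per 100 kb in Kcnip1, with a median of 0.528, against a median of 1.26 (quartiles 0.546 and 2.12) over the 953 coding genes of that length. Of the 17, 12 were below that median and 9 at or below its lower quartile: Kcnip4, Kcnd2, Kcnh7, Kcnb2, Kcnh8, Kcnh1, Kcnmb2, Kcnh5 and Kcnd3. Of the 8 that were not, Kcnip1, Kcnma1, Kcnab1, Kcnj6 and Kcnq3 were above the median. Pore-forming voltage-gated subunits are encoded by 7 of the 9 at or below the quartile, and by 9 of all 17 long members, among them Kcnd2, a transient channel of neuronal dendrites.

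Kcnma1 had the most body summits, 14 in 725.1 kb, of strength 59.2 to 579.9, and the longest stretch without one was 111.9 kb. Its strongest, at 6021 bp into the gene, lies outside the principal transcript, and the next, 565.4, lies in intron 7 of that transcript of 30 exons. Kcnip1, an auxiliary subunit of transient channels, had 10 in 363.8 kb. Its relative Kcnip4 had 6 in 1135.4 kb, 5 of them in its first 434577 bp, and then 659.7 kb without a summit. Kcnq5 also had 6, of which 4 lie at 88.8% or more of its length and 2 within 14057 bp of the start, leaving 486.6 kb empty between them. The beta subunit genes Kcnab1 and Kcnab2 had 5 each, in 268.8 and 87.1 kb.

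The strongest body summits were spread over genes of different kinds. Kcnn1, the small-conductance channel whose near-start peak was only 58.1, had the strongest of all 153 summits of the set, 642.2 and rank 64 of 41000, in intron 10 of its 11-exon transcript. It measured 370.2 in pool E and 275.8 in pool F. Kcnip1 followed with 611.4, Kcnj10, the rectifier of glia, with 591.7, Kcnma1 with 579.9, and Kcnn4 with 568.3 in its last exon, outside the coding sequence. Of the 153 summits, 3 were among the 1000 strongest of the 41000 in the list, a share close to that of all autosomal summits.

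In the conservative list, the longest member without any body summit was Kcnh7, a voltage-gated channel of neurons (490.9 kb). Next came Kcnj3, a G-protein-gated rectifier of heart and brain (162.2 kb), and Kcnu1 (88.3 kb). Kcns3, a silent subunit (60.9 kb), and Kcnj16, a rectifier of kidney and glia (59.9 kb), followed. The pool E list places body summits in Kcnj3, Kcnu1 and Kcns3, and the combined list in Kcnu1 and Kcns3. Kcnh7 and Kcnj16 had none in any of the 4 lists. Among all coding genes of 200 kb or more, 66 of 953 had none in the conservative list. The nearest summit to the Kcnh7 start was 289601 bp away. Kcnb2, a delayed rectifier of 436.5 kb, had 2 body summits in the conservative list but none within 279426 bp of its start. The combined and pool E lists each place 1 within 5000 bp of that start, and the pool F list none. A candidate peak near the Kcnb2 start had a strength of 66.8 and an irreproducible discovery rate (IDR, the expected share of peaks not shared between inputs) of 0.0611, just above the 0.05 limit of the conservative list.

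By place in the principal transcript, 98 of the 128 body summits were intronic, 10 in coding sequence and 2 in exons outside the coding sequence. The other 18 were inside the gene but outside that transcript. The first intron held 37 of the 98, 37.8%, and made up 40.7% of the members' intron length. With each gene body cut into 4 equal parts from start to end, the counts were 29, 28, 30 and 41. Neither the places nor the parts were set beside those of all coding genes, so these counts describe the members only. A summit 308.7 strong was shared by 2 members, since it lies inside Kcnip1 and 4098 bp before the start of Kcnmb1, the smooth muscle subunit of the large-conductance channel, which sits within Kcnip1 on the opposite strand.

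A CTCF motif, meaning a match to the CTCF consensus with at most 2 mismatches centred within 50 bp of the summit on either strand, was found at 121 of the 153 member summits. This is 79.1% (72.0 to 84.8%), against 77.6% of all autosomal summits and 3.20% of windows displaced by 2000 bp. Near starts it was 29 of 40, 72.5% (57.2 to 83.9%), against 64.0% of summits near any coding start, and in bodies 103 of 128, 80.5% (72.8 to 86.4%), against 75.7%. Of the 121 matches, 24 were exact. Member summits had a median strength of 224.2 against 247.0 over all autosomal summits, and 265.1 with a motif against 121.6 without one. By place, the median was 224.9 in member bodies, against 222.5 for summits inside any coding gene. Near member starts it was 256.6, against 233.0 for summits near any coding start. Masked repeats held 10.5% of member summits and 19.8% of all.

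In the gene bodies the motifs more often lay on the strand opposite to the gene. Of the 103 motif-bearing body summits, 35 were on the strand of the gene and 68 on the other, so 34.0% (25.6 to 43.6%) were on the strand of the gene, against 48.7% in all coding genes. By gene, 29 of the 45 members with such a summit (64.4%) had more motifs on the other strand, 8 (17.8%) had more on their own, and 8 were even, against 44.9% and 41.5% of all coding genes with more on the other and on their own strand. Members on the plus strand had 12 of 33 and members on the minus strand 23 of 70 motifs on their own strand, so both strands showed it.

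Pore-forming voltage-gated genes had 5 of 25 motifs on the strand of the gene, and members of 200 kb and over had 15 of 51, against 49.2% in all coding genes of that length. Kcnip4 had 1 of 6, Kcnip1 3 of 9, Kcnma1 4 of 11 and Kcnj10 none of 3. Calcium- and sodium-activated genes had 10 of 22, two-pore genes 5 of 10, auxiliary genes 10 of 28, inward rectifiers 4 of 12 and silent genes 1 of 6. Kcnab2, with 3 of 4 on its own strand, Kcnk13 and Kcnn3, with 2 of 2 each, ran the other way. Motifs within 1 gene can belong to 1 chromosome loop and are not independent, and no test of this count was made.

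**Figure D4:**
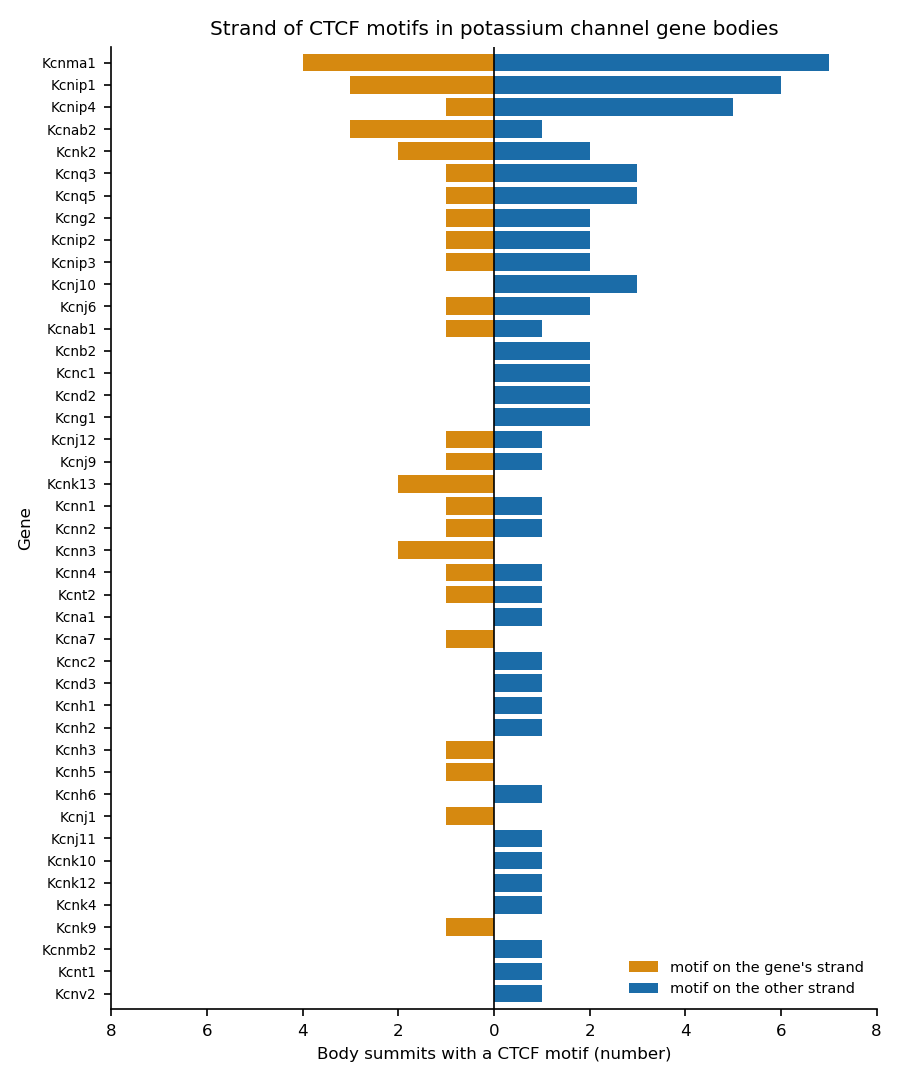
Number of body summits with a CTCF motif on the strand of the gene (orange, to the left) and on the other strand (blue, to the right) for 43 of the 45 members with at least 1, sorted by their number. In 27 of the 43 the blue bar is longer, in 8 the orange one.

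The nearest motif-bearing summits on either side of each gene were convergent, facing each other across the gene, for 32 members (36.0% against 28.9% of all genes), divergent for 19 (21.3% against 24.9%) and in tandem for 38 (42.7% against 46.3%). The median span between them was 122.1 kb for the members.

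Some members lie side by side in the genome, and 16 of them fall into 7 groups with starts within 200 kb of each other. Kcnj9 and Kcnj10 start 11892 bp apart on opposite strands, and with 50 kb on either side their region of 153.6 kb held 13 summits, 8.46 per 100 kb, against 1.67 over the autosomes, but only the weak one of 69.7 lay between the starts. The axonal and cardiac channel genes Kcna5, Kcna1 and Kcna6 had 13 in 308.1 kb, all with a motif and 9 of them between the outer starts, although only Kcna1 had one within 5000 bp. Kcna3, Kcna2 and Kcna10 had 9 in 259.6 kb, 6 of them between the starts. Between Kcne2 and Kcne1, which face each other, lay 5 of the 9 summits of a 167.1-kb region. Kcnmb1 with Kcnip1 had 13 in 463.8 kb, Kcnj5 with Kcnj1 had 5 in 184.5 kb, and Kcnk5 with Kcnk16 had 3 in 229.1 kb, with 0, 1 and 1 between the starts.

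The authors' lists were made from one pool or from both, and they share reads. At the starts, 23 members had a summit in all 4 of the conservative, combined, pool E and pool F lists, and 50 had none in any. The 7 members with a conservative near-start summit but none in the pool F list all had one in the pool E list. By list, near-start summits were found for 42.7% of members in pool E and 25.8% in pool F. Of all coding genes it was 44.2% and 32.2%. Presence in all 4 lists or in none was not set beside that of all genes. Of the 153 member peaks, 87.6% overlapped a pool E peak and 69.3% a pool F peak at a reciprocal 50%, against 87.7% and 66.2% of all autosomal peaks of the list.

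The strength was higher in pool E than in pool F at all 153 summits, and at 40966 of the 41000 autosomal summits of the list. The median log2 ratio of pool E over pool F was 1.10 (SD 0.37 over summits), against 1.03 (SD 0.40) over all autosomal summits. Because the scale of each input was not stated, a difference in scale and one in binding cannot be told apart here. The conservative list was kept by an IDR, a measure of like rank in its inputs, so how well the order of its summits matches between the pools is not reported.

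**Figure D5:**
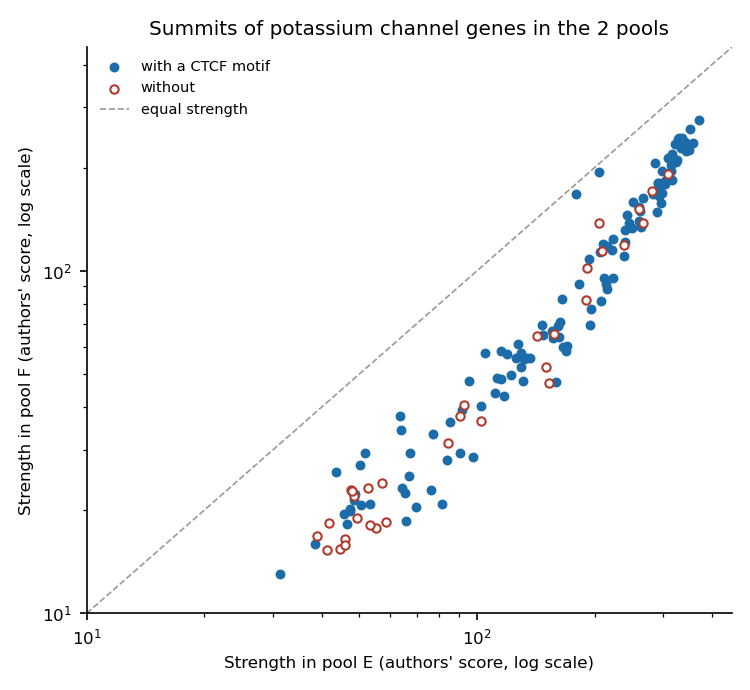
Strength of the 153 member summits in pool E (x axis) and pool F (y axis), both log scales of the authors' score, with filled points for summits with a CTCF motif, open points for those without, and a dashed line at equal strength. All points lie below the line, as would 40966 of all 41000 autosomal summits, which are not drawn. The median log2 ratio of pool E over pool F is 1.10 for the members.

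Other channel genes were counted the same way. Partners of potassium channels that do not carry a Kcn family symbol, such as Abcc8 and Dpp6, had near-start summits in 8 of 16 (interval 28.0 to 72.0%). Sodium channel genes had them in 8 of 14 (57.1%, 32.6 to 78.6%), calcium channel genes in 8 of 25 (32.0%, 17.2 to 51.6%) and chloride channel genes of the Clcn family in 6 of 8 (75.0%, 40.9 to 92.9%), beside 33.7% of the potassium channel genes. Scn4a, the sodium channel of skeletal muscle, had 5 body summits and none near its start, Cacna1s, the voltage sensor of the same fibres, 1 near-start summit of 429.6 and 5 in the body, and Clcn1, their chloride channel, none in either place. Motifs on the strand of the gene made up 52.4% of 21 in the gene bodies of the partners, 36.4% of 22 in sodium, 41.7% of 72 in calcium and 53.8% of 13 in chloride channel gene bodies, beside 34.0% in potassium channel genes and 48.7% over all genes.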

How the data were processed

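The submitters deposited peak lists of CTCF ChIP-seq on mm10 for 4 libraries in 2 pools. Per the notes deposited with each sample, technical replicates were merged into 1 alignment per pool, and both pools used the same control alignment. Names and versions of the aligner and the peak caller are not given in the sources used here. The strength of a peak is a score in the lists as deposited, on an unstated scale, and was used only to rank and describe. The −log10 of the IDR stands in a column of the authors' ranked list. All peaks of the conservative list are in that list, at an IDR of 0.05 or less, and 15 further ranked peaks pass this limit. The lists give no read counts, so depth is unknown. The number of unmapped per-sample columns was 0.

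Summits were assigned to genes of GENCODE M21 with Python 3.11.15, pandas 2.3.3 and pysam 0.24.0, after tests on simulated data. Overlaps of peaks used the reciprocal share of both lengths. No peak of the 4 lists ran past the end of its chromosome in the RefSeq GRCm38 genome. A gene start is the 5′ end of the gene. The principal transcript is the coding transcript so tagged in the annotation. Where several were tagged the one of longest genomic span was taken, and where none was tagged the longest coding transcript.

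No chance test was made: shares stand beside those of all autosomal coding genes. The members, gene lists and windows were chosen with earlier results of these data known. Genes named in detail are those with the 10 strongest near-start summits, the 5 with most and the 5 with the strongest body summits, the 5 longest without and the 5 shortest with a body summit, members known in muscle, members within 200 kb of another, and the 3 on each side of the window edge. Kcng2, Kcng3, Kcnk2, Kcnk4, Kcnk6, Kcnb2, Kcnv1, Kcnj6 and the channels of other ions were described after their values were seen. Some members are counted but not reported here by name.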

Additional observations from a re-analysis of the deposited data

How the results depend on the processing

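Of 48 alternative settings, 36 kept their result near the main value, which means within 1.5 times of it for a count or a density and inside its 95% Wilson interval for a share. Members with a near-start summit numbered 15 with peaks at or above the median strength (16.9%, against 21.1% of all genes), 13 within 1000 bp (14.6%, against 21.1%) and 62 within 20000 bp (69.7%, against 67.1%), where the main count was 30 (33.7%, against 38.2%). Counted from the start of any coding transcript, the number was 35 (39.3%, against 42.4% of all genes), which is near the main value. With those stronger peaks, 33 members had a body summit (37.1%, against 30.6% of all genes), the density was 0.598 per 100 kb (1.03 over all genes), and 0.423 in members of 200 kb and over (0.568 in all such genes). The motif share was 87.5% among the stronger peaks and 48.4% with at most 1 mismatch, against 86.7% and 45.1% of all summits. Member peaks found in pool E made 94.8% at a 1 bp overlap and 81.0% at a reciprocal 80%, and in pool F 77.8% and 9.80%, against 95.9%, 76.6%, 78.8% and 8.95% of all autosomal peaks. The stricter or looser rule by construction takes in fewer or more peaks.

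The settings on motif strand, on long members and on CpG class were chosen after seeing the data. The share of body motifs on the strand of the gene was 36.3% in the combined list, 38.3% in pool E, 31.4% in pool F, and 33.7% without Kcnma1 and Kcnip1, against 49.1%, 48.9%, 48.0% and 48.7% of all genes. The density of members of 200 kb and over was 1.05, 1.04 and 0.696 per 100 kb in the combined list, in pool E and in pool F, against 1.56, 1.60 and 0.999. Members of high CpG ratio with a near-start summit numbered 17, 18 and 13 of 36 in those lists, where the shares of all such genes were 58.9%, 59.7% and 42.5%. No paired analysis was possible because the technical replicates of each pool were merged before peaks were called and no value came from a test. Depth limits what an absent peak means: a start without a summit is one not called at this depth.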
